A study of Rattus norvegicus with 9 samples.

Results

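Maob, Slc29a4, Htr5b, Hmx3 and Hmx2 were examined as 5 serotonergic and monoamine handling genes among the 32662 genes of the count table. They were chosen by name from the authors' tables of VPA against control: a monoamine oxidase, a monoamine transporter, a serotonin receptor and a pair of neighbouring homeobox genes. All 5 had enough counts to be tested. The values that chose them were the authors' DESeq2 results, where the adjusted p of the listed genes ends at 0.05 and those of the 5 genes run from 7e-08 for Maob to 0.018 for Slc29a4 and 0.021 for Hmx2. Genes just beyond that limit carry no name in the table and were not analysed here. VPA against control is therefore described below without a test. The same VPA libraries enter VPA against lithium, so the p-values of that comparison for the 5 genes are not independent of the choice either.

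Serotonergic neurons make serotonin from tryptophan, package it in vesicles, recapture it at the membrane and degrade it in mitochondria by monoamine oxidases. Maob encodes the B form of monoamine oxidase, which in rodent brain is found in serotonergic neurons and astrocytes. Slc29a4 encodes the plasma membrane monoamine transporter, a low-affinity carrier of serotonin and dopamine. Htr5b encodes a G protein-coupled serotonin receptor that is functional in rodents, whereas the human gene is disrupted. Hmx3 and Hmx2 are homeobox transcription factors known in the mouse for their roles in the inner ear and hypothalamus. Lithium and VPA (sodium valproate) are mood stabilisers, and VPA also inhibits histone deacetylases.

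Polyadenylated RNA was sequenced from RN46A, a single immortalised rat raphe line used as a serotonergic model, in 3 groups of 3 libraries. VPA cells received 0.5 mM VPA for 72 h, lithium cells received 0.5 mM lithium for 72 h, and control cells received neither drug. All cells had been kept at 33 °C in 5% serum with Geneticin and then differentiated for 72 h at 39 °C in 1% serum on collagen and fibronectin. Reads assigned to genes totalled 9658054 to 12243806 per VPA library, 11207844 to 13030300 per lithium library and 9580591 to 11555704 per control library. One read was worth 0.077 to 0.109 CPM (the normalised read count: reads scaled to a common library size by TMM, which adjusts totals for composition). Whether the 3 libraries of each group stem from separate cultures is not stated in the labels, and the p-values below cover no more than library-to-library spread, which may be technical. Of 10 markers fixed for serotonergic neurons only Maob carries a name in the tables; Tph2, Slc6a4 and Fev, among the others, were not analysed here, so the serotonergic label of the line could not be checked.

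Hmx3 and Hmx2 lie side by side on rat chromosome 1 and had VPA changes of opposite sign, and Maob and Slc29a4 are the genes of monoamine breakdown and uptake. Their RefSeq promoter windows, 250 bases before to 50 after the annotated start in build GRCr8, are shown for that reason. Capitals mark GC boxes, the letters GGGCGG on either strand (CCGCCC as printed), the sequence recognised by Sp-family factors.
Hmx3 (chr1:195743161-195743460, plus strand): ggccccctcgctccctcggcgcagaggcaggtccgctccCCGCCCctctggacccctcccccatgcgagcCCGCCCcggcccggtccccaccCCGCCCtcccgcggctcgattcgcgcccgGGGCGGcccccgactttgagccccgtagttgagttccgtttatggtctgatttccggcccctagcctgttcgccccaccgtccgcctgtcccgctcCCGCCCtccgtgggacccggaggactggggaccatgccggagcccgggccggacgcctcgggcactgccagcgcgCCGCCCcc
Hmx2 (chr1:195749034-195749333, plus strand): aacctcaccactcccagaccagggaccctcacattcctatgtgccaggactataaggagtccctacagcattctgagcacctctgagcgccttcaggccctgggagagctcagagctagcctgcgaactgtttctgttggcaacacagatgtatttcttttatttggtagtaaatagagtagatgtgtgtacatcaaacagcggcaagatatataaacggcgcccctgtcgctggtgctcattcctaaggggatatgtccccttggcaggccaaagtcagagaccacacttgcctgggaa
Maob (chrX:8490155-8490454, plus strand): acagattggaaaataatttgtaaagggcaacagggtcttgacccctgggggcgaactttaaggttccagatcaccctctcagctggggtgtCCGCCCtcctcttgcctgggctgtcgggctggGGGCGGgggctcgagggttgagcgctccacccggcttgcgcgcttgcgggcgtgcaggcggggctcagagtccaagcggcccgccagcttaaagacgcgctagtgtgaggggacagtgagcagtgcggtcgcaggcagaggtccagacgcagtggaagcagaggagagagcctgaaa
Slc29a4 (chr12:16988289-16988588, minus strand): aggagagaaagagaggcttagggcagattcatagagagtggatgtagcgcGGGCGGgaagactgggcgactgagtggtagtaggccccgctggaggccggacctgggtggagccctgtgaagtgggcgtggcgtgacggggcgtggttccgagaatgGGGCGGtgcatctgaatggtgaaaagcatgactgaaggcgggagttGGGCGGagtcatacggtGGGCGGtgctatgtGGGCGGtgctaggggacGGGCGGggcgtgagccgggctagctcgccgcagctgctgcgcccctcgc

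The Hmx3 window held 6 GC boxes and the Hmx2 window 0. The Slc29a4 window held 6, all on the printed strand, and the Maob window 2, while the Htr5b window, not printed, held 1. Of 33469 rat promoter windows of the same 300 bases, 33.1% held at least 1 GC box, 17% at least 2 and 1.15% at least 6. By base composition the Hmx3 window was 76.7% G and C with 36 CG dinucleotides, and the Hmx2 window was 51% with 6; the median window had 51.7% and 7. The TATA motif TATAAA, read on both strands, occurred 1 time in the Hmx2 window and 0 times in those of the other 4 genes, against 14.2% of all windows. In the Hmx3 window the bases from the annotated start onward open with ATG, a start codon. The last GC box of that window lies among them. That start may therefore mark where coding begins, and where Hmx3 transcription starts was not tested. The Hmx3 counts are those of this window and may not be those of its promoter. Such letter matches are descriptions and not evidence of binding.

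Maob (ENSRNOG00000029778) is the monoamine oxidase gene of the set. Its level was 8.43, 5.46 and 6.26 CPM in VPA libraries 1, 2 and 3, against 1.21, 0.702 and 0.693 CPM with lithium and 1.45, 0.868 and 0.978 CPM in control. Every VPA library stood above every library of the other groups, and lithium and control libraries overlapped. Maob averaged 6.72 ± 1.53 CPM with VPA, 0.867 ± 0.294 CPM with lithium and 1.10 ± 0.31 CPM in control (SD, n = 3 each). The gene thus rose 7.71-fold with VPA relative to lithium, a log2 fold change of 2.95 ± 0.34 (SE; edgeR quasi-likelihood test over all genes, adjusted p = 0.00081). With any single library left out that change stayed between 2.75 and 3.26 and remained called.

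In the contrast that chose it, Maob had a log2 fold change of 2.60 ± 0.34 for VPA over control. Between same-numbered libraries the difference in log2(CPM + 0.5) was 2.19, 2.12 and 2.19. Controls 1, 2 and 3 held 16, 8 and 11 Maob reads, too few to read pairing from the closeness of these values. VPA library 1 and control library 1 were each the highest of their group. Per length, the authors' deposited Cufflinks table gives Maob 2.44 FPKM (fragments normalised for transcript length and depth) with VPA and 0.412 FPKM in control. That table places the gene on chromosome X from 6430593 to 6533534, in a build that is not given in the sources used here. In RefSeq the next gene along the X chromosome is Maoa, the A form of the enzyme, which has no name in the authors' tables and was not analysed here.

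**Figure D1:**
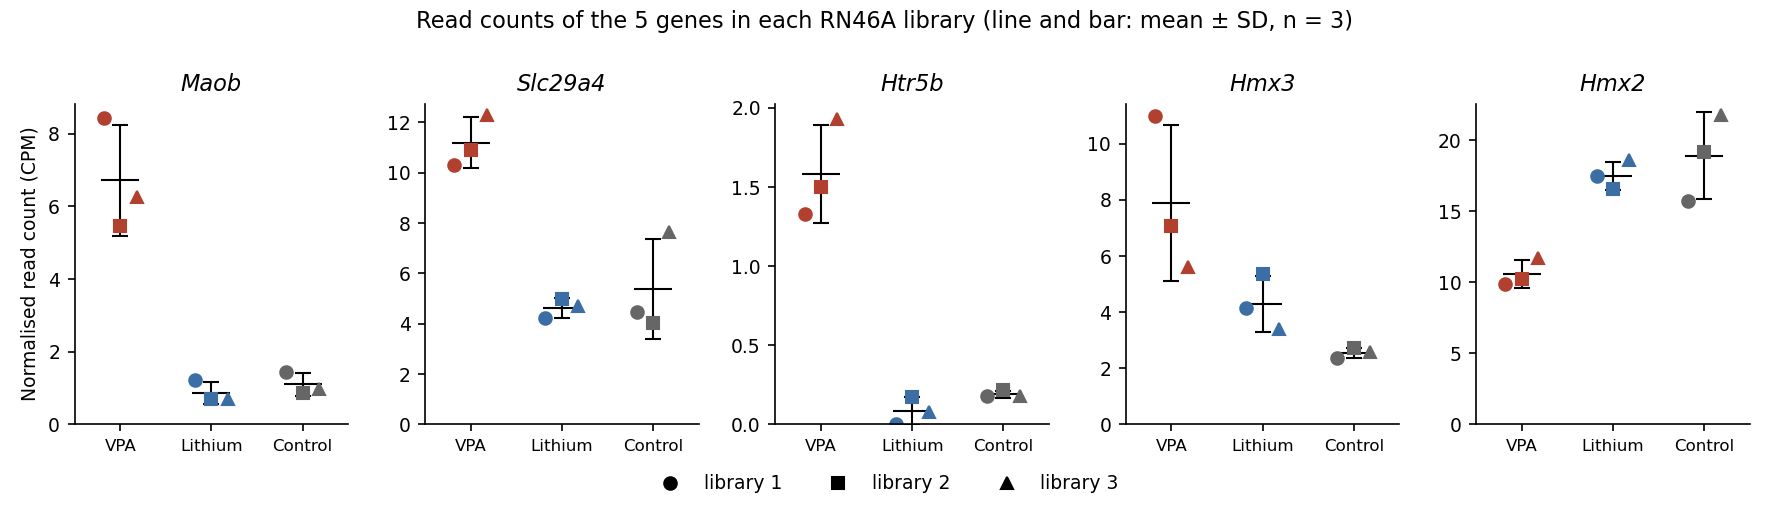
Normalised read counts (CPM, linear axes from 0) of the 5 genes in each VPA, lithium and control library; symbols give the library number, and lines with bars the mean ± SD of 3 libraries. VPA libraries stand above the other 6 for Maob, Slc29a4, Htr5b and Hmx3 and below them for Hmx2, with Hmx3 also higher in each lithium library (3.39 to 5.35 CPM) than in each control (2.36 to 2.71 CPM).

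Slc29a4 (ENSRNOG00000001115), the uptake transporter, was at 10.3, 10.9 and 12.3 CPM in VPA libraries 1, 2 and 3. The lithium libraries had 4.22, 5.00 and 4.70 CPM, and the controls 4.45, 4.02 and 7.64 CPM. Control 3 stood apart from the other controls, but no VPA library overlapped with either group. Means were 11.2 ± 1.02 CPM with VPA, 4.64 ± 0.392 CPM with lithium and 5.37 ± 1.98 CPM in control (SD, n = 3 each). Slc29a4 rose 2.40-fold with VPA relative to lithium, with a log2 change of 1.27 ± 0.26 (SE; edgeR adjusted p = 0.0124). Without lithium library 1 the log2 change was 1.21 and not called (edgeR adjusted p = 0.0554); over all alternatives the adjusted p ran from 0.00057 to 0.0554.

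Over control, the log2 change of Slc29a4 was 1.05 ± 0.26, and 1.41 without control 3. Same-numbered libraries differed by 1.13, 1.34 and 0.65 in log2(CPM + 0.5), the smallest being the pair with control 3. The authors' deposited Cufflinks table puts Slc29a4 at 4.83 FPKM with VPA and 2.24 FPKM in control, on chromosome 12 from 13914102 to 13924531.

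Htr5b (ENSRNOG00000002549), the receptor gene on chromosome 13 in GRCr8, was near the limit of detection without VPA. It had 17, 14 and 24 reads in VPA libraries 1, 2 and 3, against 0, 2 and 1 reads with lithium and 2 reads in each control. These are 1.33, 1.5 and 1.93 CPM with VPA, at most 0.175 CPM with lithium and at most 0.217 CPM in control. All lithium and control libraries lay below 3 reads, which correspond to 0.231 to 0.326 CPM there, so no fold is given between those groups. The summed 55 reads with VPA against 3 with lithium gave a ratio of 19.1 after scaling, with a 95% exact counting interval of 6.19 to 95.3. Htr5b passed the filter on low counts only through the VPA libraries, where it is high, so its call (edgeR adjusted p = 0.00191) adds nothing to these read counts. The fitted log2 change was 4.08 ± 0.59 (SE), with a range of 3.58 (without lithium 1) to 4.95 (without lithium 2) when 1 library was left out. Against the 6 reads of the controls the ratio was 8.33, with a counting interval of 3.59 to 23.7. Such intervals cover counting error only. No Cufflinks value of Htr5b was used here.

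Hmx3 (ENSRNOG00000020637) and Hmx2 (ENSRNOG00000020638) form the homeobox pair. Hmx3 was at 11.0, 7.07 and 5.62 CPM in VPA libraries 1, 2 and 3, against 4.14, 5.35 and 3.39 CPM with lithium and 2.36, 2.71 and 2.58 CPM in control. The 3 groups did not overlap, and lithium lay between VPA and control. Means were 7.90 ± 2.78 CPM with VPA, 4.29 ± 0.99 CPM with lithium and 2.55 ± 0.179 CPM in control (SD, n = 3 each). The VPA libraries varied more than the controls, with VPA 1 at 1.96 times the level of VPA 3.

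For Hmx3 neither tested difference passed after adjustment over all genes. VPA against lithium had a log2 change of 0.88 ± 0.29 (SE), with a 95% interval of 0.25 to 1.52 and an edgeR adjusted p of 0.0936. It was 0.56 without VPA 1, and the adjusted p lay between 0.0574 and 0.355 over all alternatives. Lithium against control had a log2 change of 0.75 ± 0.31, with a 95% interval of 0.07 to 1.43, an unadjusted p of 0.0338 and an adjusted p of 1 in edgeR's test. The authors' deposited lithium table, which holds 137 genes, lists Hmx3 with a log2 fold change of 0.52 ± 0.23, a p of 0.0273 and an adjusted p of 1. In that table the normalised counts of Hmx3 were 46.9, 61.3 and 39.2 with lithium and 28.0, 32.8 and 28.6 in control. The other 4 genes have no value from that table here. Relative to control, VPA changed Hmx3 by 1.63 ± 0.31 on the log2 scale, and by 2.01, 1.24 and 0.99 between same-numbered libraries as log2(CPM + 0.5).

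Hmx2 was at 9.91, 10.2 and 11.7 CPM in VPA libraries 1, 2 and 3, against 17.5, 16.6 and 18.6 CPM with lithium and 15.7, 19.2 and 21.8 CPM in control. All VPA libraries were lower than all others, while lithium and control overlapped. Averages came to 10.6 ± 0.982 CPM with VPA, 17.5 ± 0.996 CPM with lithium and 18.9 ± 3.05 CPM in control (SD, n = 3 each). Hmx2 fell to 0.605 of its lithium level with VPA, a log2 change of -0.73 ± 0.19 (SE; edgeR adjusted p = 0.037). That call was lost without any 1 of the VPA or lithium libraries, with an edgeR adjusted p of 0.06 (without VPA 3) to 0.133 (without VPA 1), though the log2 change stayed between -0.81 and -0.68. Compared with control, VPA changed Hmx2 by -0.83 ± 0.19, and by -0.64, -0.88 and -0.87 between same-numbered libraries.

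Within a library, the share of Hmx3 among the reads of both genes does not depend on scaling between libraries. It was 52.6, 41.0 and 32.4% in VPA libraries 1, 2 and 3, against 19.1, 24.4 and 15.4% with lithium and 13.1, 12.4 and 10.6% in control. Exact binomial 95% intervals were 46.4 to 58.7% for the highest VPA library, 26.2 to 39.1% for the lowest VPA library and 7.20 to 14.8% for the lowest control. Mean shares were 42.0 ± 10.1% with VPA, 19.7 ± 4.5% with lithium and 12.0 ± 1.28% in control (SD, n = 3 each). No group overlapped with another. The difference was 22.4 percentage points for VPA over lithium and 7.65 points for lithium over control. Groups of 3 that do not overlap always give p = 0.1 in a two-sided exact permutation test, the smallest p possible, so the shares are a description. The ratio was also formed with the opposite VPA changes of both genes known.

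**Figure D2:**
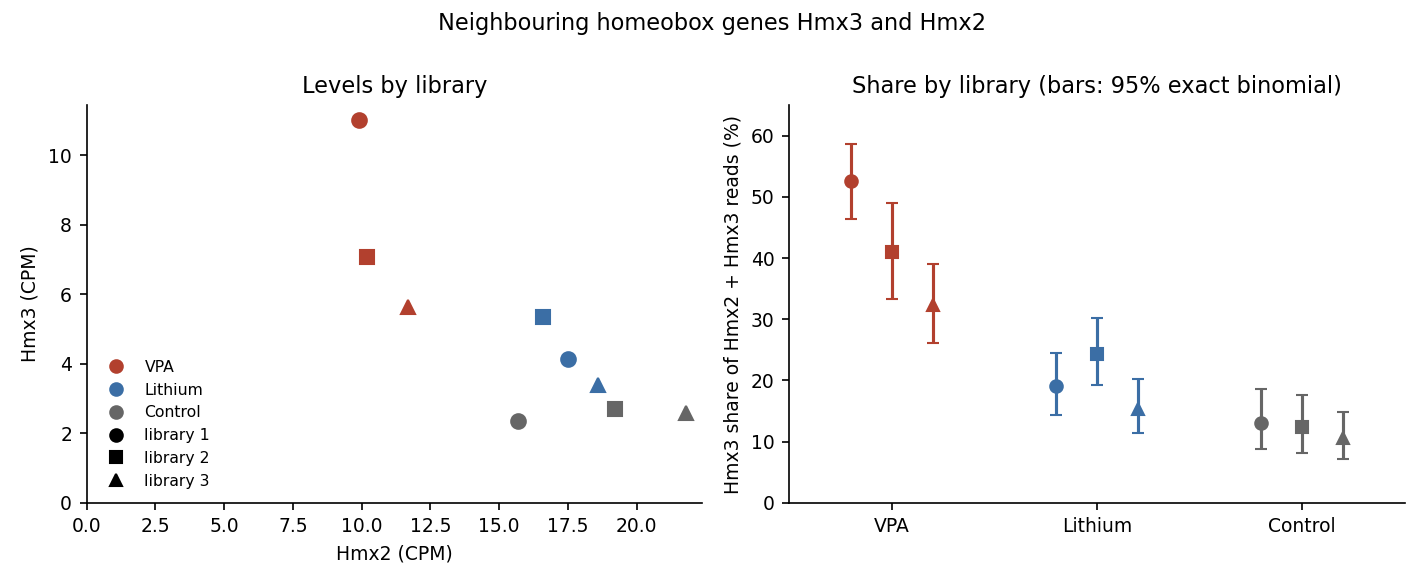
Left, Hmx3 against Hmx2 in CPM for each of the 9 libraries; right, the share of Hmx3 in the summed reads of both genes in percent, with exact binomial 95% intervals, for VPA, lithium and control. VPA libraries combine low Hmx2 (9.91 to 11.7 CPM) with Hmx3 shares of 32.4 to 52.6%, above the 15.4 to 24.4% of lithium and the 10.6 to 13.1% of control.

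On a per-length scale, Hmx2 remained the more abundant of the pair in both groups that the authors' deposited Cufflinks table covers. That table gives Hmx2 5.98 FPKM with VPA and 11.0 FPKM in control, and Hmx3 4.39 FPKM with VPA and 1.51 FPKM in control. In the authors' deposited table Hmx3 spans 203509440 to 203513483 and Hmx2 203515608 to 203524117 of chromosome 1, leaving 2125 bases between them. RefSeq lists Hmx2 as the next gene after Hmx3, followed by Bub3. It has 0 genes that overlap any of the 5 in GRCr8, which may not be the build of the counts. Reads were not stranded, so reads from an antisense transcript would be counted with the gene.

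Considered together, VPA against lithium called 4 of the 5 genes, with Maob, Slc29a4 and Htr5b higher and Hmx2 lower, while Hmx3 did not pass; Htr5b was among the genes tested only through its VPA reads. Over the 12719 genes tested 7.93% were called, 5.61% higher and 2.32% lower. The 5 genes were taken from those with a name in the authors' tables. Of the 1297 named genes tested, 63.9% were called, 45% higher and 18.9% lower, and the count of 4 is to be read against that share. The VPA libraries had served to choose the 5 genes and the lithium libraries had not, so the count is not independent of that choice. Groups did not overlap for any of the 5 genes, 4 of them higher and 1 lower with VPA, against 29.2% of all genes, 15.8% higher and 13.5% lower. The median log2 change was 1.27 over the 5 genes and -0.02 over all genes tested. Neither the share without overlap nor the median was computed for named genes alone, so these 2 contrasts carry the same choice.

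**Figure D3:**
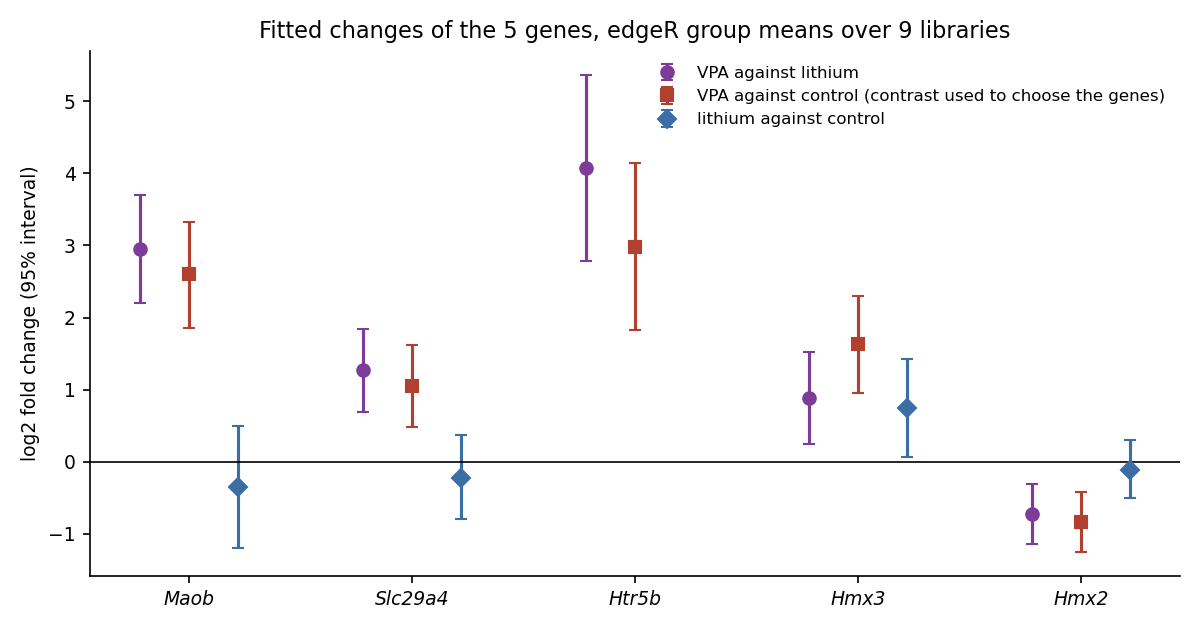
Fitted log2 fold changes with 95% intervals from the group means of 9 libraries, for VPA against lithium, VPA against control (the contrast that chose the genes) and lithium against control. The VPA intervals lie above 0 for 4 genes and below 0 for Hmx2, and the lithium interval excludes 0 for Hmx3 alone of the 4 genes shown; Htr5b, with 2 reads or fewer in each lithium and control library, has no lithium value, and its VPA values rest on few reads.

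Lithium against control called 0 of the 5 genes and 0 of 12719 tested in edgeR, where 116 genes, 0.912%, had an unadjusted p under 0.05; DESeq2 also called 0, with 113 such genes. Lithium and control did not overlap for Hmx3, against 3.28% of all genes, with 1.71% higher and 1.57% lower with lithium. For Htr5b the scaled levels did not overlap either, at 0.175 CPM in lithium 2 and 0.178 CPM in control 3. Lithium 2 and each control held 2 reads of Htr5b, so its reads tie and nothing is read from that gap. The 95% intervals of the log2 change were -1.20 to 0.49 for Maob, -0.80 to 0.37 for Slc29a4 and -0.51 to 0.30 for Hmx2. Changes of up to 1.41-fold higher or 0.436 of the control level for Maob lie within these intervals. The median log2 change of lithium over control was -0.22 over the 5 genes and 0.00 over all genes. The control libraries are shared by this comparison and by the one that chose the genes.

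VPA against control, the contrast that chose the genes, called 8.7% of all genes in edgeR's unpaired fit, 5.71% higher and 2.99% lower. VPA and control did not overlap for any of the 5 genes, 4 higher and Hmx2 lower, against 25.5% of all genes, 14.1% higher and 11.4% lower; nothing is read from this, since the contrast chose them. With same-numbered libraries as pairs, 1741 genes were called over all 9 libraries and 2408 in the 2 groups alone, against 1106 unpaired. For the 5 genes the authors' own estimates of VPA over control differed in size. The authors' deposited DESeq2 table gives log2 changes of 2.0 for Maob, 0.9 for Slc29a4, 1.5 for Htr5b, 1.3 for Hmx3 and -0.7 for Hmx2. Their deposited Salmon and sleuth table, put on the log2 scale, lists 1 transcript per gene with effects of 2.40 for Maob, 1.19 for Slc29a4, 2.44 for Htr5b, 1.42 for Hmx3 and -0.83 for Hmx2. From the FPKM of the authors' deposited Cufflinks table the log2 ratios are 2.57 for Maob, 1.11 for Slc29a4, 1.54 for Hmx3 and -0.89 for Hmx2. Htr5b differed most between estimates, at 1.5 in the authors' deposited DESeq2 table, against 2.98 ± 0.53 (SE) in the edgeR fit and 3.04 ± 0.844 (SE) in a DESeq2 fit of the same deposited counts. The cause of that gap was not tested.

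**Figure D4:**
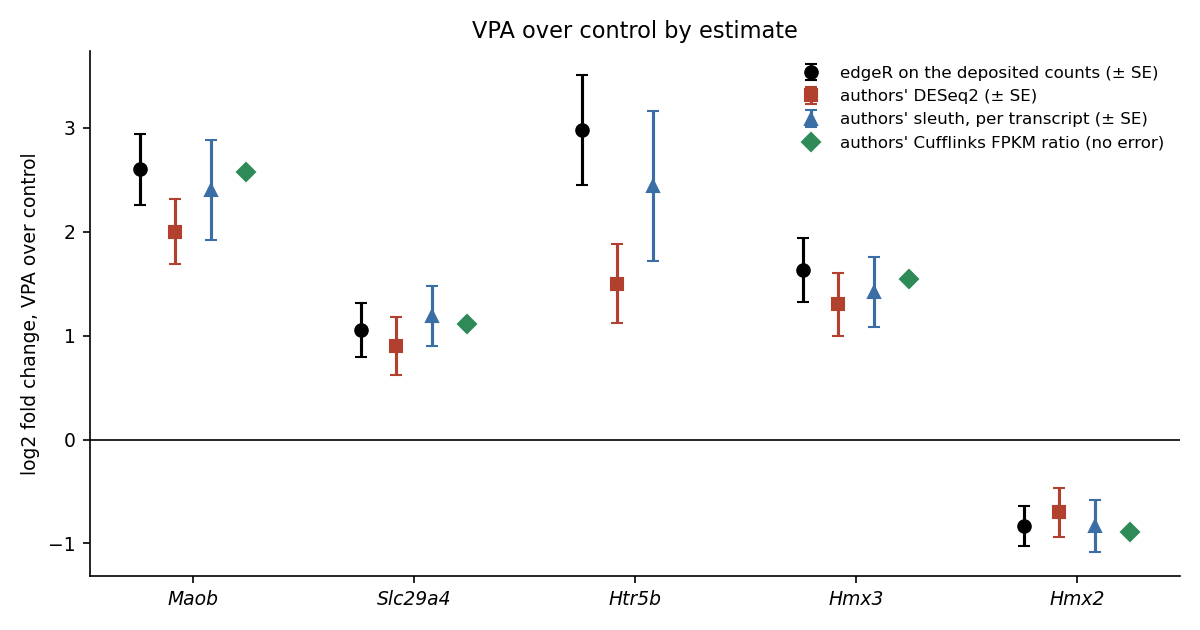
Log2 fold change of VPA over control for each gene from the edgeR fit of the deposited counts and from the authors' DESeq2, sleuth and Cufflinks tables; bars are SE where an error exists, and Htr5b has no Cufflinks point. The estimates share their libraries; for Htr5b they run from 1.5 to 2.98, and for Hmx2 from -0.89 to -0.70.

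Other genes of the pathways were sought in lists chosen with earlier results of these data known. A gene had a name here only if the authors' tables of VPA or of lithium against control listed it. The VPA tables chose by p-value, and all of them came from these very libraries. Counts below therefore say nothing about unlisted members. Of the 1297 named genes tested, 63.9% were called for VPA against lithium, 45% higher and 18.9% lower, against 7.93% of all genes tested, and each count of list or marker genes is to be read against the share among named genes. Of 14 monoamine transport and storage genes, 2 were named and tested, Slc29a4 and Slc6a15. Slc6a15, a neutral amino acid transporter of the same family as the serotonin transporter, averaged 9.92 ± 0.941 CPM with VPA, 1.49 ± 0.509 CPM with lithium and 1.44 ± 0.602 CPM in control (SD, n = 3 each). It rose by 2.73 ± 0.34 on the log2 scale with VPA relative to lithium (SE; edgeR adjusted p = 0.000929). Of 14 serotonin receptor genes Htr5b was the 1 with a name, and of 12 degradation genes Maob was. Of 9 serotonin synthesis genes and 15 raphe identity factors, 0 had a name.

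Of 13 receptor partners and regulators, 3 were tested, with Ppp1r1b and Gnai1 higher with VPA than with lithium in each library. Ppp1r1b, which encodes the phosphatase inhibitor DARPP-32 of monoamine-responsive neurons, averaged 4.99 ± 1.25 CPM with VPA, 0.554 ± 0.106 CPM with lithium and 0.414 ± 0.0444 CPM in control. Gnai1, an inhibitory G protein subunit used by several serotonin receptors, averaged 4.55 ± 0.462, 0.753 ± 0.0519 and 0.505 ± 0.113 CPM in VPA, lithium and control (SD, n = 3 each). Their log2 changes over lithium were 3.14 ± 0.34 for Ppp1r1b and 2.58 ± 0.30 for Gnai1 (SE). Both passed the count filter only through the VPA libraries, so these are given as a description. Rgs2, which accelerates G protein deactivation, was at 10.3 ± 1.86 CPM with VPA and 12.8 ± 1.09 CPM with lithium (edgeR adjusted p = 0.443), and at 19.5 ± 3.74 CPM in control. Of 22 catecholamine and histamine genes, the adrenergic receptor Adra1b was tested, at 2.76 ± 1.37 CPM with VPA and 1.93 ± 0.21 CPM with lithium (edgeR adjusted p = 0.518).

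Of 37 listed homeobox genes of the Hmx family and its NK-like relatives, 3 were tested: Hmx2, Hmx3 and Dlx1. Another NK homeobox gene with a name, Nkx2-3, was not on the list and was not examined. Dlx1, a factor of forebrain interneuron development, fell with VPA as Hmx2 did, to 19.0 ± 3.06 CPM, against 31.5 ± 1.85 CPM with lithium and 33.6 ± 5.22 CPM in control. Its log2 change over lithium was -0.73 ± 0.19 (SE; edgeR adjusted p = 0.0354).

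Named genes most like each of the 5 were ranked by the root mean square difference of log2(CPM + 0.5), centred over the 9 libraries, among 1225 genes (1226 for Htr5b) averaging 1 CPM or more. Closest to Maob were Elmod1 (0.211), Nsg2 (0.269) and the glutamate transporter gene Slc1a1 (0.271). For Slc29a4 they were Zswim5 (0.14), Mpped2 (0.15) and the calcium release channel gene Ryr1 (0.155). Htr5b lay nearest to Acer2 (0.18), Cilp2 (0.182) and Bdh1 (0.183). Their fitted log2 changes over lithium were 2.46, 2.28 and 1.92, against 4.08 for Htr5b. The added 0.5 exceeds every lithium and control level of Htr5b and shrinks its differences, so this likeness holds on that scale only. For Hmx2 the nearest were Mcm7 of the replication helicase (0.0723), Hdgf (0.078) and the kinase gene Akt1 (0.0856). Nearest to Hmx3 were Ly6l (0.218), the clone-named gene AABR07005779.4 (0.218) and Faim2 (0.261). All 3 had their highest mean with VPA and their lowest in control, as their choice by likeness would give; Ly6l had 2.42 CPM with VPA, 1.09 CPM with lithium and 0.57 CPM in control. The distances are given within each gene and do not rank the 5 genes against each other.

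Named markers of other cell types also differed with VPA. A marker had a name only if the authors' tables listed it, and 76.7% of the 1297 named genes tested were called for VPA against control. Movement of the named markers was thus largely set by that choice, and unnamed markers were not analysed. In bulk RNA, a change in the number of cells of a type and a change in RNA per cell cannot be told apart. The summed level of 4 of 9 Schwann cell and neural crest markers was 55.9 to 65.1 CPM in the VPA libraries, 14.4 to 15.9 CPM with lithium and 11.1 to 16.9 CPM in control, with Sox10 at 0 in control 1. Of these, 3 were called higher and 1 lower with VPA relative to lithium, where 45% of all named genes were called higher and 18.9% lower; Sox10 passed the count filter only through the VPA libraries. That of 5 of 10 markers of other neurons was 73.9 to 82.6 CPM with VPA, 16.5 to 20.5 CPM with lithium and 13.1 to 24.1 CPM in control. All 5 were called higher over lithium, of which Snap25 passed the filter only through the VPA libraries. For 6 of 9 fibroblast markers it was 470.0 to 741 CPM with VPA, 1210 to 2670 CPM with lithium and 1810 to 3640 CPM in control, with Lum at 0 in all VPA libraries, and 1 of the 6 was called higher and 2 lower over lithium. Most of that sum was 1 gene, S100a4, at 383 to 662 CPM with VPA, 1080 to 2460 CPM with lithium and 1450 to 3430 CPM in control. S100b, the 1 astrocyte marker of 7 with a name, fell to 1.63 ± 0.208 CPM with VPA, against 3.78 ± 0.992 CPM with lithium (SD, n = 3 each; edgeR adjusted p = 0.0295) and 3.99 ± 0.66 CPM in control. S100b is also the Schwann cell and neural crest marker called lower above, so these are 1 observation. The part of these markers in the levels of the 5 genes was not tested.

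**Figure D5:**
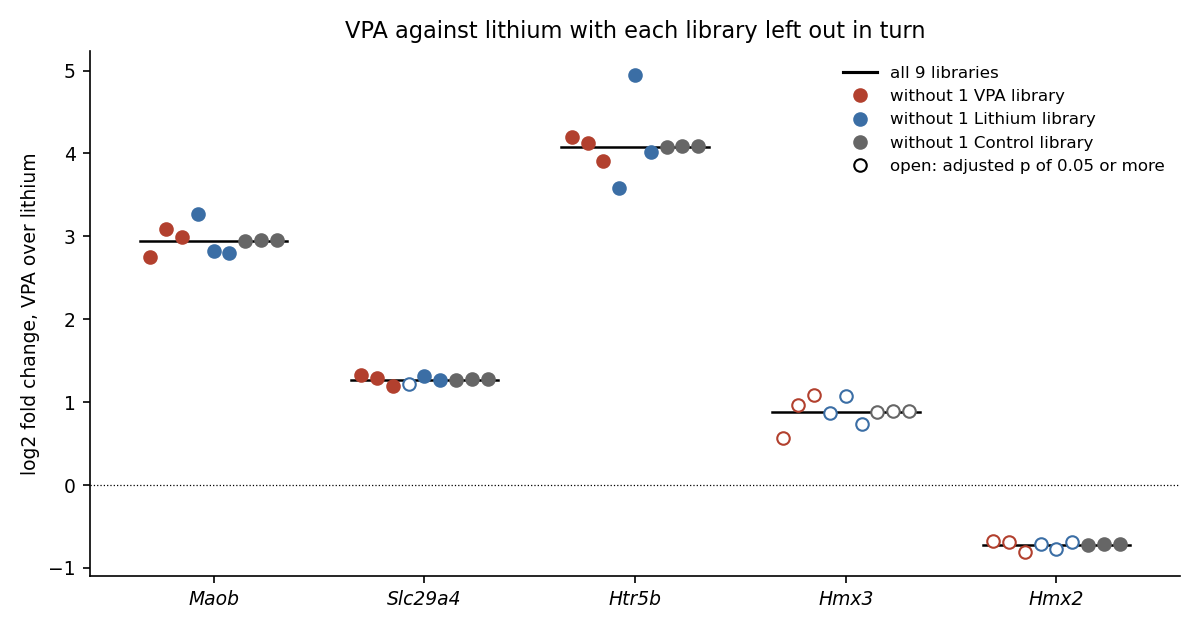
Log2 fold change of VPA over lithium for each gene with all 9 libraries (line) and with each library left out in turn (points, coloured by the group of the missing library; open where the adjusted p was 0.05 or more). Maob (2.75 to 3.26) and Htr5b stayed called throughout, Slc29a4 in 8 of 9 fits, Hmx2 in 3 and Hmx3 in 0. Htr5b was tested only through its VPA reads, so its calls add nothing to its read counts.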

How the data were processed

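Samples were grouped and numbered by the submitters' titles. The submitters' processing notes name STAR 2.5.1, Salmon 0.6.1, DESeq2, Cufflinks 2.2.1, sleuth, CASAVA 1.8 and kallisto 0.42.4 with no role for each. No build or gene annotation is named in the sources used here. The authors deposited raw counts per Ensembl gene (HTSeq, per the file name). They also deposited log2 fold changes, p-values and normalised counts (a signal) from DESeq2, FPKM values and q-values from Cufflinks, and transcript effects from sleuth, per the file headers. The deposited sleuth effects are on a natural log scale: their median ratio to the Cufflinks log2 ratios was 0.697 over 588 transcripts. A deposited table titled for kallisto repeats the DESeq2 table and was not used.

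Counts were tested with edgeR 4.0.16 in R 4.3.3: filterByExpr (minimum count 10), TMM, a quasi-likelihood fit (robust) with 1 mean per group over 9 libraries, tests two-sided, with adjustment (Benjamini-Hochberg) across 12719 genes. An adjusted p under 0.05 made a call, and rose and fell are used only of called genes. The standard error was the log2 change over the square root of F. Exact tests used SciPy 1.17.1. DESeq2 1.42.0, other scalings, filters, fits and leaving out each library were alternatives.

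Title numbers paired VPA and control libraries: deviations from group means correlated by 0.605, 0.532 and 0.526 over 10288 genes with 5 CPM or more. The labels state no pairing, and the fit without it was kept. Libraries of 1 group differed beyond counting noise (chi-square per degree of freedom 27 to 68.3), so none looked like a repeated deposit.

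The 5 genes and all lists were chosen with earlier results of these data known. Genes named were the 5, up to 6 named and tested members of each list by p over the 3 groups, and the 3 genes most like each of the 5. Marker lists also covered epithelium, where 1 of 5, Krt8, was tested (2.17 to 4.18 CPM with VPA, 7.11 to 11.2 CPM with lithium, 8.35 to 12.9 CPM in control), and leucocytes, where 3 of 7 were tested (26.8 to 46.3, 22.5 to 33.6 and 23.4 to 31.4 CPM in the same order). Over lithium, Cd68 and Lcp1 of these were called higher and Lsp1 lower with VPA, with log2 changes of 1.11, 3.39 and -2.78; Lcp1 passed the count filter only through the VPA libraries.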

Additional observations from a re-analysis of the deposited data

How the results depend on the processing

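For VPA against lithium, every alternative kept the direction of all 5 genes, and other scalings, DESeq2, a filter of 1 CPM, the groups alone and a non-robust fit moved no call. Without a filter on low counts Hmx2 had a log2 change of -0.74 and was not called (edgeR adjusted p = 0.0573). With 1 library left out, the log2 change ran from -0.81 to -0.68 for Hmx2, 1.19 to 1.32 for Slc29a4, and 0.56 to 1.08 for Hmx3. For lithium against control, leaving out control 3 turned the sign of Slc29a4 (0.13) and Hmx2 (0.007), and the log2 changes over all single omissions ran from -0.40 to 0.13 and from -0.22 to 0.01; neither was called in any fit. VPA over control kept its sign for all 5 genes in every alternative.

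Genes called numbered 544 to 1197 for VPA against lithium and 638 to 1026 for VPA against control with 1 library left out, against 1009 and 1106 with all 9; the count fell by more than 1.5 times without any 1 VPA library in both comparisons, without lithium 1 or 2 in the first and without control 1 in the second. With the replicate number as a block, 1609 genes were called for VPA against lithium (1318 in those groups alone) and 1741 for VPA against control (2408 in those groups alone). In the same blocked fits lithium against control called 0 genes, and the block changed no call of the 5 genes. For VPA and lithium, same-numbered deviations correlated by -0.193, 0.0555 and 0.537, and 2 of 6 libraries correlated best with their own number. For lithium and control the correlations were -0.42, -0.0808 and 0.804, again with 2 of 6. The libraries numbered 3 thus shared deviations across all 3 groups, while those numbered 1 and 2 did so for VPA and control. Depth limits Htr5b most, since the lithium libraries hold 3 of its reads in all.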
